A study of Mus musculus with 6 samples.

Results

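The 31 genes described here are those of cholesterol synthesis and its lipid regulation, chosen by gene symbol from a fixed list. All 31 were found among the 44788 gene symbols of the count table, 1 of them, *Msmo1*, under its older symbol *Sc4mol*. They fall into 7 enzymes of the mevalonate steps, 11 enzymes that carry squalene to cholesterol, 5 genes of sterol sensing, 5 genes of fatty acid synthesis and 3 genes of sterol transport and export. RNA was taken from whole tail tendons of C57BL/6 mice, aged 3 weeks by the sample labels and somewhat older by the text of the study, with 3 WT libraries and 3 libraries from *Mkx*-/- mice, which lack the tendon homeobox factor Mohawk throughout the body. The comparison asks which of these genes differed in level between WT and *Mkx*-/- tendons. Sources used here do not say how many mice went into each library, so the p-values measure the spread between these 6 libraries.

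Cholesterol is built from acetyl-CoA. The mevalonate steps make isoprenoid units and farnesyl diphosphate, squalene synthase joins farnesyl units into squalene, and a chain of endoplasmic reticulum enzymes then closes and trims the sterol ring. Most of these enzymes are controlled together by the transcription factor SREBP2, the product of *Srebf2*, while SREBP1, from *Srebf1*, acts more on fatty acid synthesis. SCAP carries both factors out of the endoplasmic reticulum when sterols are low, and the INSIG proteins hold SCAP back when sterols are high. The liver X receptors work in the opposite direction and raise the sterol exporters ABCA1 and ABCG1. In peripheral nerves, which run through tendons, myelinating Schwann cells are heavy makers of cholesterol.

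The libraries held 10835070 to 14160301 counts. *Col1a1*, *Col1a2* and *Sparc* took 42.0% to 48.5% of the counts in WT and 28.3% to 34.8% in *Mkx*-/- libraries, so levels are given as normalized CPM, counts per 1e+06 counts after edgeR's TMM scaling. *Mkx* itself had 1825, 1381 and 1685 counts in WT and 620, 589 and 491 counts in *Mkx*-/- libraries (log2 difference of -1.60, edgeR adjusted p = 0.00183), and counts per gene do not show which part of the gene they came from. Of 8 tendon fibroblast markers, none was at 0 in any library. They summed to 381852 to 524601 CPM in WT and 244907 to 339611 CPM in *Mkx*-/- libraries, without overlap, and most of this was *Col1a1* and *Col1a2*. By their means 2 of the 8 were higher and 6 lower. At an edgeR adjusted p under 0.05, 1 was higher and 0 were lower. DESeq2 called 1 higher and 3 lower, namely *Scx*, *Col1a1* and *Col1a2* (DESeq2 adjusted p = 0.0145, 0.0491 and 4.04e-07). Of all 14550 tested genes, DESeq2 called 748 higher and 557 lower. WT replicate 1 stood farther from the other 2 WT libraries (chi-square per degree of freedom of 34.8 and 36.4) than these did from each other (7.59). WT replicate 3 came from a male, with 301 counts of *Ddx3y* against 0 in the other 5 libraries. It had 1 count of *Xist*, where the *Mkx*-/- libraries had 1289 to 1563. Sex was thus not balanced between the groups. Its effect on the members, of which *Nsdhl* and *Ebp* are X-linked, was not tested.

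Promoters are shown for *Srebf2*, the only member past the test's threshold below. *Hmgcs1* is shown as the only member whose window held the sterol regulatory element searched for. *Cyp51*, *Nsdhl* and *Msmo1* are shown as enzymes of the late pathway with edgeR fitted fold changes of 1.73 to 1.97, *Mkx*-/- over WT. Each sequence is the 250 bases before the annotated transcript start, 5′ to 3′ on the gene's strand, from RefSeq in build GRCm38.p6. Capitals mark the sterol regulatory element TCACNCCAC, the site type bound by SREBP, and the CCAAT box, bound by NF-Y, on either strand, where the latter reads ATTGG on the strand shown.
Srebf2 (chr15:82147019-82147268, plus strand): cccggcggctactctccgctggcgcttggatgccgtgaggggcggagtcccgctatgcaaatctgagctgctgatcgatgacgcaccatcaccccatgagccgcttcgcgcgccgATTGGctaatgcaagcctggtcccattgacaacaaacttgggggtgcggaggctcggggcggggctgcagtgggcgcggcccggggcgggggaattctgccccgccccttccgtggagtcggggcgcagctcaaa
Hmgcs1 (chr13:119690101-119690350, plus strand): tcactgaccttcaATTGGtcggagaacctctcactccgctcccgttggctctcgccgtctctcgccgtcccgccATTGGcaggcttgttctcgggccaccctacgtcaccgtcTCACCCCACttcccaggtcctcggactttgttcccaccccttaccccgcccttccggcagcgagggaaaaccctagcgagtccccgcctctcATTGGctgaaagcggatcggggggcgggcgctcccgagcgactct
Cyp51 (chr5:4104698-4104947, minus strand): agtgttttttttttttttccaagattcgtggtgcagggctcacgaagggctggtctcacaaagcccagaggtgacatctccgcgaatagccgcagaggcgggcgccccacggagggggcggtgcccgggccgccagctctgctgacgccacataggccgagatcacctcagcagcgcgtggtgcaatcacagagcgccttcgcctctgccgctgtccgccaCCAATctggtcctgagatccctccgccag
Nsdhl (chrX:72918271-72918520, plus strand): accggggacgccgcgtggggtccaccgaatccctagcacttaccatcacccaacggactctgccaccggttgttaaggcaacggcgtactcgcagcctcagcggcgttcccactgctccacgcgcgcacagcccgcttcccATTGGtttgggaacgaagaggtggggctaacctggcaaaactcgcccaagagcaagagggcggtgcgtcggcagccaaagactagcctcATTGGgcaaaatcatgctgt
Msmo1 (chr8:64733579-64733828, minus strand): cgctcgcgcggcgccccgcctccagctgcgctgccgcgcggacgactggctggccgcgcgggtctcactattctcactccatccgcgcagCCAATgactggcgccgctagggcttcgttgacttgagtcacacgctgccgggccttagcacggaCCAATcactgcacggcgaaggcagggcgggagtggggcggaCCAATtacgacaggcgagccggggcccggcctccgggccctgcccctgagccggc

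RefSeq windows were found for 25 of the 31 members, with 33 windows in all because some genes have several starts. The sterol regulatory element was found once among them, in *Hmgcs1* from base -137 before the start, and in 1.05% of all 32851 windows of the same length. A CCAAT box stood in 14 of the 18 windows of sterol synthesis enzymes (77.8%) against 33.8% of all windows and 34.7% of the 12505 windows of genes tested here. The GC box GGGCGG, read on either strand, stood in 15 of these 18 windows (83.3%), in 32.7% of all windows and in 57.0% of the windows of tested genes. The motifs can share bases at their ends, a match describes the letters and not binding, and a window without a match says nothing about the factor.

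Only 1 of the 31 members, *Srebf2*, was past an adjusted p of 0.05 in edgeR's quasi-likelihood test, and none was past it in the lower direction. That is 3.23% of the members, where 5.44% of all 14550 genes tested passed, 3.18% in the higher and 2.26% in the lower direction. By this count the members did not stand out. At an unadjusted p and with DESeq2, the shares of members called higher were above those of all genes. All 31 members had enough counts to be tested. With the further requirement of a 2-fold change, 0 members were called, where 1.89% of all genes were called higher and 1.33% lower (3.22% in all). At an unadjusted p under 0.05, 11 members were higher (35.5%) and 1 was lower (3.23%). Of all genes, 12.5% were higher and 10.1% lower at that level (22.6% in all). DESeq2 called 6 members higher (19.4%) and 0 lower, where 5.14% of the tested genes were called higher. Scaling by library totals in place of TMM called 7 members higher, but it moved the median of all genes to 0.25 and turned the split of all calls from 463 higher and 329 lower into 1358 higher and 197 lower.

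The direction was more uniform than the calls. In *Mkx*-/- tendons, 28 of the 31 members had a higher fitted level, where 49.5% of all tested genes did, with a median log2FC (log2 fold change fitted by edgeR, *Mkx*-/- over WT) of 0.44 for the members and -0.0037 for all genes. Each of the 18 sterol synthesis enzymes had a log2FC above 0, with a median of 0.71 and a range from 0.028 to 1.16. In 7 of these 18 enzymes the 3 *Mkx*-/- libraries all lay above the 3 WT libraries (38.9%, where 14.6% of all tested genes did so). These counts describe genes that are controlled together and are not independent of each other.

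**Figure D1:**
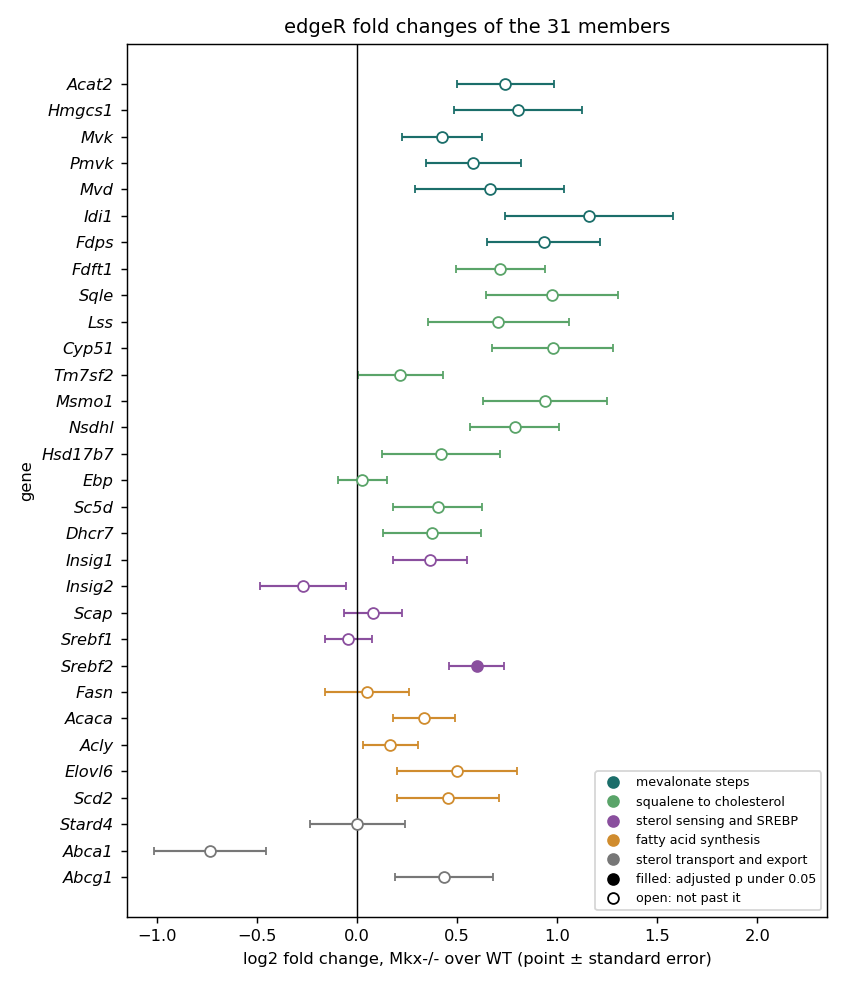
Fitted log2 fold change of each of the 31 members, *Mkx*-/- over WT (x axis, point ± standard error from edgeR, 3 libraries per group), by gene (y axis) and coloured by role. *Srebf2*, at 0.60, is the only filled point, which marks an adjusted p under 0.05, and the 18 enzymes in the upper 2 blocks all lie to the right of 0.

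*Srebf2* encodes SREBP2, the main activator of the sterol pathway. It lies on chromosome 15 from 81977696 to 82035806 on the plus strand in mm9. Its level was 60.0, 65.7 and 70.5 CPM in WT and 91.2, 91.2 and 115 CPM in *Mkx*-/- libraries, so the groups did not overlap. It rose from 65.4 ± 5.24 to 99.1 ± 13.6 CPM (SD, n = 3 each) with a log2FC of 0.60 (standard error, SE, 0.14, edgeR adjusted p = 0.0441, DESeq2 adjusted p = 0.00551). This call was close to the threshold. It was lost in each of the 6 edgeR fits that left out a library, with adjusted p between 0.0638 without WT replicate 1 and 0.144 without *Mkx*-/- replicate 3, while the log2FC stayed between 0.48 and 0.66.

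*Srebf1*, the related gene for SREBP1, gave 81.2, 69.4 and 71.1 CPM in WT and 70.2, 75.3 and 69.8 CPM in *Mkx*-/- libraries. These groups overlapped, with a log2FC of -0.043 (SE 0.12, edgeR adjusted p = 0.870). Exons of *Rai1* lie over *Srebf1* on the opposite strand, and the counts may hold reads of both. Per kilobase of annotated exon the SREBP genes had like levels in WT, at 13.1 ± 1.05 CPM per kb for *Srebf2* and 13.1 ± 1.14 for *Srebf1* (SD, n = 3 each). In *Mkx*-/- tendons the means were 19.9 and 12.7 CPM per kb. The ratio of *Srebf2* counts to *Srebf1* counts, which needs no scaling between libraries, was 0.739, 0.946 and 0.992 in WT and 1.30, 1.21 and 1.65 in *Mkx*-/- libraries.

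The INSIG genes, whose products retain SCAP in the endoplasmic reticulum, had fitted differences of opposite sign, neither past the test. *Insig1*, itself a target of SREBP, had 28.1, 16.6 and 21.1 CPM in WT and 27.4, 29.4 and 28.0 CPM in *Mkx*-/- libraries. WT replicate 1 lay among the *Mkx*-/- libraries, and the log2FC of 0.36 had an edgeR adjusted p of 0.294, or 0.0495 without that library. Its log2FC was then 0.58, and 0.19 without WT replicate 2. *Insig2* had 31.3, 18.3 and 21.9 CPM in WT and 18.6, 23.5 and 17.3 CPM in *Mkx*-/- libraries, with a log2FC of -0.27 (SE 0.21, edgeR adjusted p = 0.506), or -0.025 without WT replicate 1. Within each library, the ratio of *Insig1* to *Insig2* counts was 0.899, 0.909 and 0.960 in WT and 1.47, 1.25 and 1.62 in *Mkx*-/- tendons. Both ratios separated the groups without overlap. Each had a two-sided exact permutation p of 0.1, the smallest that 3 against 3 libraries allow, and both were picked after the levels had been seen. *Scap*, the escort protein, differed by a log2FC of 0.081 (SE 0.15, edgeR adjusted p = 0.793), with levels of 52.0 to 71.8 CPM in WT and 59.9 to 68.7 CPM in *Mkx*-/- libraries. Its log2FC was -0.032 without WT replicate 3.

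**Figure D2:**
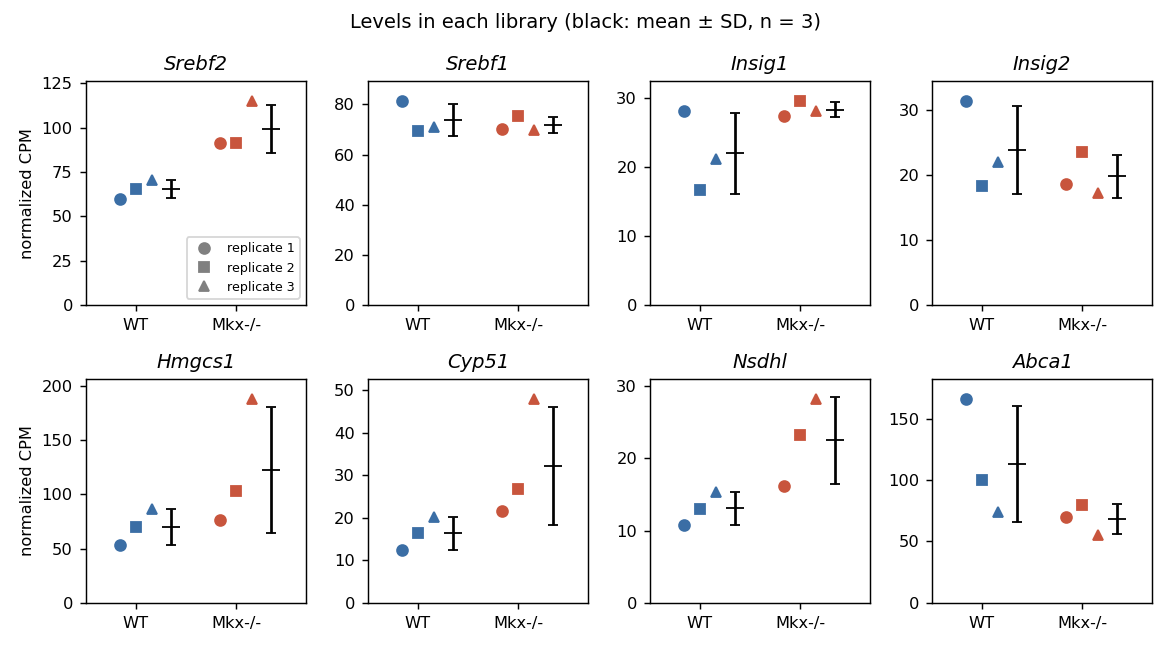
Normalized CPM (y axis, from 0) of 8 members in WT (blue) and *Mkx*-/- (red) libraries, with the replicate number as the symbol and the mean ± SD (n = 3) in black. *Srebf2*, *Cyp51* and *Nsdhl* show no overlap between the groups, *Srebf1* and *Insig2* overlap, and *Mkx*-/- replicate 3 is the highest library for *Hmgcs1*, *Cyp51* and *Nsdhl*.

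Of the 7 enzymes of the mevalonate steps, 5 lay higher at an unadjusted p under 0.05 (71.4%, where 12.5% of all tested genes did). In edgeR 0 passed the adjusted threshold, where 3.18% of all tested genes did in the higher direction. *Hmgcs1*, the cytosolic HMG-CoA synthase that commits acetyl units to the pathway, had 53.6, 70.2 and 86.5 CPM in WT and 76.6, 103 and 188 CPM in *Mkx*-/- libraries. *Mkx*-/- replicate 1 lay within the WT range and replicate 3 far above it, and the log2FC was 0.81 (SE 0.32, edgeR adjusted p = 0.181), or 0.36 without *Mkx*-/- replicate 3. *Fdps*, farnesyl diphosphate synthase, had 6.85, 7.85 and 6.97 CPM in WT and 9.43, 11.3 and 20.5 CPM in *Mkx*-/- libraries. Its groups did not overlap, and its log2FC was 0.93 (edgeR adjusted p = 0.0977, DESeq2 adjusted p = 0.0402), or 0.53 without *Mkx*-/- replicate 3. *Idi1*, isopentenyl diphosphate isomerase, had the largest fitted fold of any member, 2.23, on only 8, 8 and 16 counts in WT and 15, 25 and 37 counts in *Mkx*-/- libraries (edgeR adjusted p = 0.148).

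*Acat2*, the cytosolic thiolase that starts the pathway, and *Pmvk*, phosphomevalonate kinase, had fold changes of 1.67 and 1.5, at edgeR adjusted p of 0.114 and 0.195. Both overlapped between the groups through *Mkx*-/- replicate 1. Reads could be split between *Acat2* and its close paralog *Acat3*, which had 1.28 to 4.78 CPM. *Mvk*, mevalonate kinase, and *Mvd*, the decarboxylase, had fold changes of 1.34 and 1.58, at edgeR adjusted p of 0.257 and 0.337. For *Mvd* most of the difference lay in *Mkx*-/- replicate 3, which had 25.1 CPM where replicates 1 and 2 had 11.7 and 10.8 CPM and WT had 6.22 to 12.7 CPM. Without that library the log2FC of *Mvd* was 0.17 in place of 0.66, and without WT replicate 1 it was 0.41. For *Pmvk* it was 0.37 without WT replicate 3, in place of 0.58.

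Between squalene and cholesterol, 5 of the 11 enzymes lay higher at an unadjusted p under 0.05 (45.5%, where 12.5% of all tested genes did). In edgeR 0 passed the adjusted threshold, where 3.18% of all tested genes did in the higher direction. *Nsdhl*, a 4-demethylating dehydrogenase on the X chromosome, had the smallest p of the enzymes. Its level was 10.8, 13.1 and 15.4 CPM in WT and 16.2, 23.2 and 28.2 CPM in *Mkx*-/- libraries, without overlap. Its log2FC was 0.79 (SE 0.22, edgeR adjusted p = 0.0800, DESeq2 adjusted p = 0.0301). *Msmo1*, the methyl sterol oxidase that works beside it, had 13.2, 16.3 and 18.9 CPM in WT and 19.1, 26.5 and 47.1 CPM in *Mkx*-/- libraries. These did not overlap either, by a narrow margin between WT replicate 3 and *Mkx*-/- replicate 1, at a log2FC of 0.94 (edgeR adjusted p = 0.117, DESeq2 adjusted p = 0.0359). *Cyp51*, lanosterol demethylase, had 12.4, 16.4 and 20.2 CPM in WT and 21.6, 26.9 and 48.0 CPM in *Mkx*-/- libraries, a fold change of 1.97 (edgeR adjusted p = 0.101, DESeq2 adjusted p = 0.0228). Without *Mkx*-/- replicate 3, the log2FC was 0.50 for *Msmo1* and 0.57, in place of 0.98, for *Cyp51*.

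*Sqle*, squalene epoxidase and a slow step of the pathway, had 7.72, 11.9 and 13.1 CPM in WT and 14.0, 17.4 and 32.8 CPM in *Mkx*-/- libraries, again without overlap (fold change 1.97, edgeR adjusted p = 0.125, DESeq2 adjusted p = 0.0453). *Fdft1*, squalene synthase, had a fold change of 1.64 and groups that did not overlap (edgeR adjusted p = 0.101). Its exons are overlapped on the opposite strand by *Ctsb*, which lay between 496 and 573 CPM. Exons of *Lss*, *Scap* and *Acaca* are overlapped on the opposite strand too, and the counts of these genes may hold reads of both strands. *Lss*, the cyclase that makes lanosterol, had 9.13 to 14.6 CPM in WT and 11.1, 14.8 and 29.4 CPM in *Mkx*-/- libraries (log2FC of 0.71, edgeR adjusted p = 0.282). Without *Mkx*-/- replicate 3, the log2FC was 0.53 for *Sqle*, 0.45 for *Fdft1* and 0.20 for *Lss*, in place of 0.97, 0.72 and 0.71.

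The remaining late enzymes differed less. *Sc5d*, *Hsd17b7*, *Dhcr7* and *Tm7sf2*, which reduce or desaturate the sterol, had fold changes of 1.32, 1.34, 1.30 and 1.16, with edgeR adjusted p from 0.329 to 0.598. *Hsd17b7* and *Tm7sf2* had their lowest level of all 6 libraries in *Mkx*-/- replicate 1. On the log2FC scale these 4 genes stood at 0.40, 0.42, 0.38 and 0.22, and without *Mkx*-/- replicate 3 at 0.21, 0.055, 0.14 and 0.11. Leaving out another library moved them between 0.23 and 0.53 for *Sc5d*, 0.34 and 0.66 for *Hsd17b7*, 0.23 and 0.60 for *Dhcr7* and 0.11 and 0.39 for *Tm7sf2*. *Ebp*, the sterol isomerase, had 16.9 to 19.6 CPM in WT and 17.7 to 19.2 CPM in *Mkx*-/- libraries, a log2FC of 0.028 (SE 0.12). It was the only enzyme whose highest library was in WT.

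**Figure D3:**
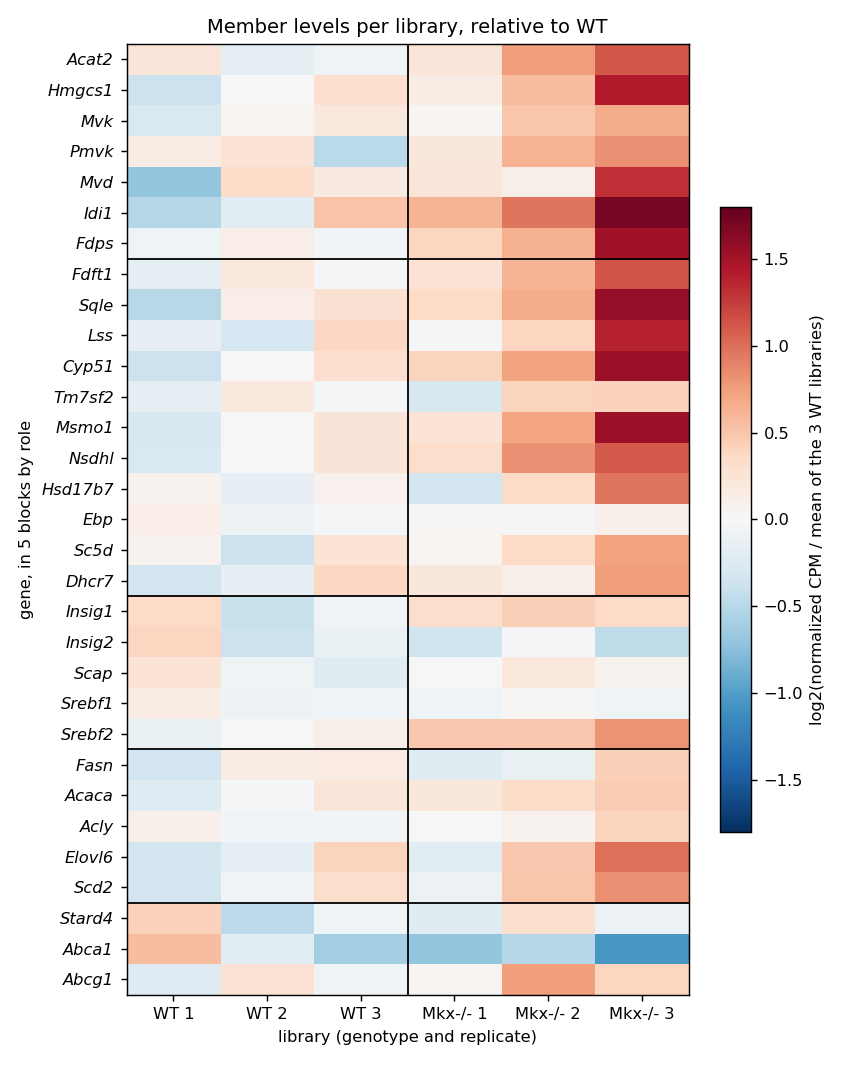
Level of each member (rows, in blocks by role) in each of the 6 libraries (columns), as log2 of its normalized CPM over the mean of the 3 WT libraries, with red above and blue below that mean. The deepest red is in *Mkx*-/- replicate 3 in the upper 2 blocks, whose 18 enzymes had a median ratio of 2.18 to the WT mean in that library, and *Abca1* is deepest blue there.

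The 3 *Mkx*-/- libraries differed among themselves in these enzymes. Across the 18 enzymes the median ratio to the WT mean was 1.16 in *Mkx*-/- replicate 1, 1.5 in replicate 2 and 2.18 in replicate 3. In replicate 1, 7 enzymes lay above and 2 lay below all 3 WT libraries. In replicate 2, 15 lay above, and in replicate 3, 17 did. *Mkx*-/- replicate 3 was the highest library for 17 of the 18 enzymes, where it was the highest for 20.0% of all tested genes. In the fit of all 6 libraries, 10 of the 18 enzymes were higher at an unadjusted p below 0.05 (55.6%, where 12.5% of all tested genes were). Without *Mkx*-/- replicate 3, the median log2FC of the enzymes was 0.40 with 5 of them higher at that level. Without *Mkx*-/- replicate 1 the median was 0.90 with 14 of them higher.

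The summed level of the 18 enzymes was 216, 253 and 288 CPM in WT and 282, 362 and 581 CPM in *Mkx*-/- libraries, 252 ± 36.4 against 408 ± 155 CPM (SD, n = 3 each). Markers of Schwann cells and myelin were read beside it. The summed level of 10 such markers was 8275, 10202 and 10915 CPM in WT and 12802, 20981 and 23820 CPM in *Mkx*-/- libraries, a mean 1.96 times as high in *Mkx*-/- tendons. Of these markers 10 of 10 had a higher level with an unadjusted p below 0.05, where 12.5% of all tested genes did. Only 1 of them, *Ncmap*, was past an adjusted p of 0.05 (edgeR adjusted p = 0.0468), where 3.18% of all tested genes were called higher. None was at 0 in any library. WT replicate 1 was lowest and *Mkx*-/- replicate 3 highest in both sums. The enzyme sum overlapped between the groups, with *Mkx*-/- replicate 1 below WT replicate 3, and the marker sum did not. An association between the sums was not tested. The part of Schwann cells in the enzyme levels was not tested. In bulk tissue, more cells of a type and more RNA per cell cannot be told apart.

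**Figure D4:**
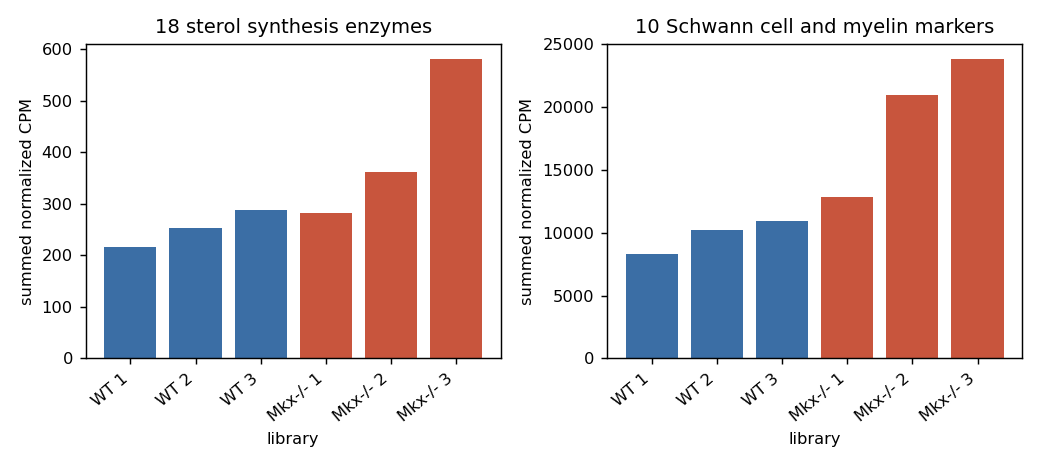
Summed normalized CPM (y axis, from 0) in each library (x axis, WT in blue, *Mkx*-/- in red) of the 18 sterol synthesis enzymes (left) and of 10 Schwann cell and myelin markers (right). Enzymes reach 581 CPM and markers 23820 CPM in *Mkx*-/- replicate 3, the highest library of both panels.

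Other cell types gave these values. The 8 endothelial markers summed to 62.1 to 74.9 CPM in WT and to 72.2, 84.5 and 145 CPM in *Mkx*-/- libraries. By their means 6 of 8 were higher, with 0 past the adjusted threshold in edgeR and none at 0. Like the enzymes, this sum was highest in *Mkx*-/- replicate 3. DESeq2 called *Pecam1* and *Vwf* higher (DESeq2 adjusted p = 0.0252 and 0.0358). That is 25% of these markers, where 5.14% of all tested genes were called higher. The 10 adipocyte markers summed to 40.4 to 54.4 CPM in WT and 33.1 to 38.4 CPM in *Mkx*-/- libraries, with 6 of 10 higher by their means. Of the 10, 6 were at 0 in at least 1 library, including the defining genes *Adipoq*, *Plin1* and *Cidec*, none of which exceeded 0.632 CPM. The adipocyte sum was lower in each *Mkx*-/- library than in any WT library. Most of this sum was *Lpl* and *Lipe*, with log2FC values of -0.067 and -0.94, and only *Lipe* separated the groups. Among the scarcer markers, *Adipoq*, *Cfd* and *Fabp4* had higher means in *Mkx*-/- tendons. *Lep* went the other way, with 5 to 11 counts in the WT libraries and 0 in each *Mkx*-/- library. The 10 sebaceous and epidermal markers summed to 9.06 to 23.9 CPM in WT and 16.4 to 19.7 CPM in *Mkx*-/- libraries, with 8 of 10 higher. Of these markers, *Krt5*, *Krt79*, *Mc5r*, *Awat1* and *Far2* were at 0 in at least 1 library. Most of the WT sum was *Dgat2*, which had a log2FC of -1.21. The keratins *Krt5* and *Krt14* lay higher in every *Mkx*-/- library than in any WT library, on low counts. Their log2FC values were 2.47 and 1.83 (edgeR adjusted p = 0.0990 and 0.123, DESeq2 adjusted p = 0.360 and 0.0480). The 8 macrophage and leukocyte markers summed to 518 to 549 CPM in WT and 323 to 345 CPM in *Mkx*-/- libraries, with 0 of 8 higher and 2 past the adjusted threshold in the lower direction. The macrophage sums did not overlap between the groups. The 10 skeletal muscle markers summed to 98.3 to 397 CPM in WT and to 2812, 1351 and 529 CPM in *Mkx*-/- libraries, with 9 of 10 higher, 2 past the adjusted threshold in the higher direction and *Mkx*-/- replicate 3 the lowest of its group. The 8 cartilage markers summed to 1301 to 1795 CPM in WT and 1876 to 2556 CPM in *Mkx*-/- libraries, with 6 of 8 higher and 2 past the adjusted threshold in that direction. Beside these marker calls, 3.18% of all tested genes passed the adjusted threshold in the higher and 2.26% in the lower direction. The part of these cell types in the results was not tested.

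The fatty acid genes showed no call. *Scd2*, a stearoyl-CoA desaturase, was the most abundant per kilobase of the 30 members with an exon length, at 77.7 ± 17.6 CPM per kb in WT (SD, n = 3). It had 337, 408 and 526 CPM in WT and 395, 596 and 751 CPM in *Mkx*-/- libraries, which overlapped, with a log2FC of 0.45 (SE 0.25, edgeR adjusted p = 0.337). Its counts may share reads with *Scd1*, which had 171 to 257 CPM over the 6 libraries. *Fasn*, fatty acid synthase, had 129 to 181 CPM in WT and 139.8, 148 and 218 CPM in *Mkx*-/- libraries, a log2FC of 0.052 (SE 0.21), and -0.18 without *Mkx*-/- replicate 3. *Acly*, which supplies cytosolic acetyl-CoA, *Acaca*, acetyl-CoA carboxylase, and *Elovl6*, a fatty acid elongase, had fold changes of 1.12, 1.26 and 1.42, with edgeR adjusted p from 0.248 to 0.525. In all 5 genes *Mkx*-/- replicate 3 was the highest library, and without it the log2FC was 0.23 for *Scd2*, 0.035 for *Acly* and 0.18 for *Elovl6*.

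Per kilobase of exon in WT, *Scd2* was followed by *Acly* and *Fasn* at 16.9 ± 0.983 and 16.5 ± 3.01 CPM per kb, then by *Srebf1* and *Srebf2*, *Scap* at 11.6 ± 1.97 and *Abca1* at 10.9 ± 4.56 (SD, n = 3 each). After *Scd2*, neighbours in this order differed by less than the larger of their SDs, except *Fasn* and *Srebf1*. The sterol synthesis enzymes other than *Hmgcs1* lay lower, from 0.314 ± 0.119 CPM per kb for *Idi1* to 7.82 ± 0.607 for *Ebp* (SD, n = 3 each). *Hmgcs1*, the most abundant enzyme in WT by CPM at a mean of 70.1, is left out because its exon length was not used here. Its place in this order is therefore not known.

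Among the transport genes, *Abca1*, the exporter that loads cholesterol onto apolipoproteins, was the only member lower at an unadjusted p under 0.05. It had 166, 99.8 and 74.3 CPM in WT and 70.3, 79.3 and 54.9 CPM in *Mkx*-/- libraries. WT replicate 1 stood far above the rest, WT replicate 3 lay below *Mkx*-/- replicate 2, and the log2FC of -0.73 (SE 0.28) had an edgeR adjusted p of 0.167. Without WT replicate 1 it was -0.35. *Abcg1*, the companion exporter and like *Abca1* a target of the liver X receptors, had 3.78 to 5.30 CPM in WT and 4.58 to 7.52 CPM in *Mkx*-/- libraries, a log2FC of 0.44 (SE 0.24, edgeR adjusted p = 0.337), or 0.23 without *Mkx*-/- replicate 2. *Stard4*, which ferries cholesterol through the cytosol, had 11.2 to 20.8 CPM in WT and 13.4 to 19.0 CPM in *Mkx*-/- libraries, a log2FC of 0.0024 (SE 0.24).

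Another 6 lists of lipid genes were read in the same fit, with 98 tested genes in all. Of 13 further genes of sterol synthesis and its isoprenoid branches, 7 were higher, 0 were past the adjusted threshold in edgeR, and the median log2FC was 0.048. *Acat1*, the mitochondrial thiolase, had a log2FC of -0.34 (edgeR adjusted p = 0.224). Of 10 genes of SREBP processing and sterol-regulated degradation, 0 passed and the median was -0.050, with *Sec24a* and *Mbtps1* at -0.71 and 0.17 (edgeR adjusted p = 0.130 and 0.410).

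Of 18 genes of lipoprotein uptake and lysosomal transfer, 4 were higher and 4 lower at an unadjusted p under 0.05 (22.2% each). Of all tested genes, 12.5% were higher and 10.1% lower at that level. In edgeR 0 of the 18 passed the adjusted threshold. *Vldlr*, a lipoprotein receptor, and *Stard5* had log2FC values of -0.63 and -0.97, and *Mylip*, a ligase that removes lipoprotein receptors, 0.54 (edgeR adjusted p = 0.0708, 0.109 and 0.0871).

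Among 17 genes of sterol esters, oxysterols and the liver X receptors, 2 passed, 1 in each direction. The 1 called higher is 5.88% of the list. Of all tested genes, 3.18% were called higher and 2.26% lower. *Hsd3b7*, a steroid dehydrogenase of bile acid synthesis, rose from 41.3 ± 4.13 to 78.2 ± 2.40 CPM (SD, n = 3 each) with a log2FC of 0.92 (SE 0.12, edgeR adjusted p = 0.00480). *Nceh1*, a hydrolase of neutral cholesterol esters, fell from 37.0 ± 6.40 to 20.3 ± 0.266 CPM (SD, n = 3 each) with a log2FC of -0.86 (SE 0.15, edgeR adjusted p = 0.0168). Both separated the groups in all 6 libraries. *Cyp27a1*, a sterol hydroxylase, had 108, 40.1 and 37.1 CPM in WT and 25.8, 35.3 and 18.4 CPM in *Mkx*-/- libraries (edgeR adjusted p = 0.131), and WT replicate 1 was again the highest.

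In the list of 20 other genes of fatty acid synthesis, elongation and desaturation, *Mid1ip1*, an activator of acetyl-CoA carboxylase, rose from 24.9, 24.4 and 20.7 CPM in WT to 33.1, 41.8 and 43.6 CPM in *Mkx*-/- libraries, a log2FC of 0.76 (SE 0.15, edgeR adjusted p = 0.0260). The other 19 did not pass, so 5% of this list was called higher, where 3.18% of all tested genes were. *Acacb*, the mitochondrial carboxylase, had 72.9 CPM in WT replicate 1 and 8.17 to 22.9 CPM in the other 5 libraries (edgeR adjusted p = 0.162), and *Scd3* had 0.491 to 1.66 CPM over all 6 (edgeR adjusted p = 0.225). Of 20 genes of glycerolipid synthesis and lipid droplets, 13 were lower and 0 passed. *Dgat2*, which makes triglyceride, had 7.33, 14.8 and 16.7 CPM in WT and 5.86, 4.78 and 6.10 CPM in *Mkx*-/- libraries, without overlap (edgeR adjusted p = 0.0560, DESeq2 adjusted p = 0.00481). *Lipe*, hormone-sensitive lipase, and *Agpat4* had log2FC values of -0.94 and 0.50 (edgeR adjusted p = 0.0839 and 0.0819).

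**Figure D5:**
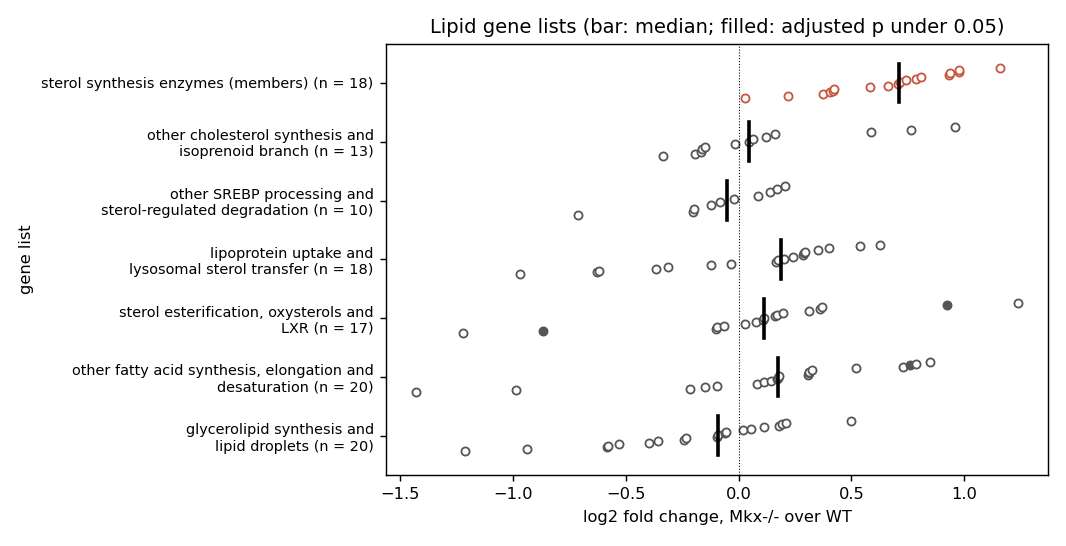
Fitted log2 fold change, *Mkx*-/- over WT (x axis), of each tested gene (points) in the 18 sterol synthesis enzymes (red) and in 6 other lipid lists (grey), with the median of each list as a bar and filled points for an adjusted p under 0.05 in edgeR. The median of the enzymes is 0.71 and those of the other lists lie between -0.092 and 0.19.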

How the data were processed

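Per the methods of the study, total RNA of tail tendons was made into libraries with the Ion Total RNA-Seq Kit v2 and sequenced on an Ion Proton, adaptor sequences and reads of low quality or with many ambiguous bases were removed, and the rest was aligned to mm9 with MapSplice. The table deposited by the authors holds unnormalized read counts for each gene symbol. The counting program, its annotation and its use of strand are not given in the sources used here, so counts of overlapping genes and close paralogs are uncertain. All 6 columns matched a sample title.

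edgeR 4.0.16 in R 4.3.3 was run with filterByExpr, TMM scaling, a quasi-likelihood fit on genotype and Benjamini-Hochberg adjustment over all 14550 genes tested, with a prior count of 0.125 behind the fold changes. DESeq2 1.42.0, the tool of the study, was an alternative. The scripts were tested on simulated data. Exon lengths and mm9 positions came from GENCODE M1. Members and gene lists were chosen with earlier results of these data known, and the text names *Mkx*, every member and, of each wider list, the genes past the adjusted threshold and 2-fold or else the 3 with the smallest p. A few genes that this rule names are not reported here. The 15 alternatives changed the tool, scaling, low-count filter, dispersion fit, marker genes or replicate block, or left out 1 library. Same-numbered WT and *Mkx*-/- libraries did not deviate together (r = -0.00031, -0.24 and 0.31), so the numbers were not taken as pairs. No pair of replicates was a repeat of one library (chi-square per degree of freedom of at least 7.59).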

Additional observations from a re-analysis of the deposited data

How the results depend on the processing

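In 420 of 464 refits of single members (31 members under 15 alternatives, 1 gene too low for 1 filter), the direction and the side of the adjusted threshold stayed as given. *Srebf2* was no longer past it with the replicate number as a block (adjusted p = 0.0701) or without any 1 library. Members past the threshold in the higher direction numbered 6 with DESeq2, 7 with scaling by library totals, 9 with a filter of 1 count in any library, 2 with the replicate block and 0 to 1 leaving out a library, against 1. For the sterol synthesis enzymes these counts were 5, 6, 8, 2 and 0 to 1, against 0. Scaling by library totals, which moved the median of all genes to 0.25, also gave 5 members past 2-fold, a median of 0.71 for the members and 0.99 for the enzymes. All genes past 2-fold were not counted under that scaling. Over all genes, calls higher and lower numbered 463 and 329, then 768 and 565 with DESeq2, 1358 and 197 with library totals, 970 and 594 with the filter of 1 count, 264 and 170 with the replicate block, and 117 to 539 and 127 to 439 leaving out a library. These counts come from different numbers of tested genes. There were 14550 in the main fit, with library totals and with the replicate block. There were 25763 with DESeq2, 25777 with the filter of 1 count and 14694 to 15067 leaving out a library. The replicate block rests on shared numbers only. Leaving out a library moved the median of the members between 0.23 and 0.63, that of the enzymes between 0.40 and 0.90, and the enzymes at an unadjusted p under 0.05 between 5 and 14, the extremes being *Mkx*-/- replicates 3 and 1. Signs reversed only for members near 0. *Stard4* was -0.0048 with DESeq2, -0.0038 with RLE scaling, -0.010 without Schwann cell markers in the table, an alternative added after seeing the data, and -0.20 to 0.27 leaving out a library. *Srebf1* was 0.21 with library totals and -0.10 to 0.029 leaving out a library, where *Ebp* ranged from -0.033 to 0.089, *Fasn* from -0.18 to 0.15 and *Scap* from -0.032 to 0.22. The causes were not tested. Counts of 8 to 37 limit *Idi1*.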
